A study of Mus musculus with 4 samples.

Results

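Neural progenitor cells (NPCs) in which serum response factor (Srf) had been knocked down were compared between a stiff and a soft matrix. The comparison set the library from 12 kPa against the library from 0.5 kPa, which are 2 of the 4 libraries of the study and are the only pair with Srf knocked down. The cells were N31 NPCs, a mouse line derived from induced pluripotent stem cells that carries doxycycline-inducible reprogramming transgenes, and they expressed a short hairpin RNA against Srf, shSrf#1, from a retroviral vector. They were cultured on type I collagen-coated matrices of either stiffness, in NPC medium without the growth factors EGF or bFGF. Poly(A) RNA was sequenced. N31 NPCs without the hairpin, on the same matrices and in the same medium, gave the control libraries. Values of these control NPCs are given for some genes and groups. Whether they carried an empty vector is not given in the sources used here. Of 21862 genes whose symbol is listed once, 7635 had an FPKM (fragments per kilobase of transcript and per mapped reads of the library, a level per transcript length) above 10 in both Srf-knockdown libraries, and these well-expressed genes are described here.

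Srf is a DNA-binding factor that works with partner proteins of different kinds. Mkl1 and its relatives carry the signal of actin polymerisation, which rises when a cell pulls on a stiff substrate, to genes of the contractile apparatus, whereas the ternary complex factors Elk1, Elk3 and Elk4 carry the signal of the growth factor kinase ERK to immediate early genes such as Fos and Egr1. The DNA element bound by Srf is the CArG box.

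With 1 library for each condition there was no replicate check and no test, so each value below is a difference between these 2 libraries and cannot be told apart from variation between cultures. Genes are called higher or lower on 12 kPa when their FPKM ratio passed 1.1-fold, the threshold of the study. The ± after a log2 ratio is a standard error (SE) from counting reads only. Its median was 0.029 over the 7552 of the 7635 genes that had a transcript length. Reads were estimated at 45100000 on 0.5 kPa and 62300000 on 12 kPa. Whether a lower value reflects fewer cells of a type or less RNA per cell cannot be told apart in bulk RNA.

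Srf was at 34.4 and 35.6 FPKM in the control libraries from 0.5 and 12 kPa and at 16.2 and 17.4 FPKM in the knockdown. The knockdown libraries were thus below both control libraries, with a log2 ratio 12/0.5 kPa of 0.10 ± 0.035 between them. Of the partners of Srf, Mkl1 was at 23.9 FPKM on 0.5 kPa and 27.5 on 12 kPa (log2 0.20 ± 0.027). Elk4 was slightly lower on 12 kPa, at 26.9 and then 24.2 FPKM, and Elk3 stayed within 1.1-fold at 64.7 and 60.7 FPKM. The glycolytic enzyme Gapdh, a customary reference gene, was level at 1072 and 1069.7 FPKM.

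The label of neural progenitors was checked against marker genes. The progenitor factor Sox2 was at 19.1 and 20.4 FPKM, Pax6 at 6.49 and 6.78 and the intermediate filament gene Nes at 16.4 and 15.5. Sox1, Hes5, Olig2 and Nr2e1 were listed at 0 in both knockdown libraries, and Fabp7 was at 0.442 and 0.239 FPKM. Sox2 and Klf4 are also among the reprogramming transgenes, whose reads cannot be separated here. Mesenchymal genes were abundant, with Col3a1 at 1897 and 1908 FPKM and the mesenchymal factor Prrx1 at 216 and 203, and the summed level of the 21 mesenchymal markers was 7123 FPKM on 0.5 kPa and 6945 on 12 kPa. Of the 25 progenitor markers 11 were above 10 FPKM and 9 below 1 FPKM in both libraries, with sums of 2730.0 and 2770.1 FPKM. Vim and Cdh2 are on both the mesenchymal and the progenitor list and count in both sums, so the progenitor sum is not specific to progenitors. Slc1a3 and Sox9 are likewise on both the progenitor and the astrocyte list. Pdgfra is on both the mesenchymal and the oligodendrocyte list, and Olig2 on both the progenitor and the oligodendrocyte list. The oligodendrocyte sum is therefore not specific to that lineage. Of 18 astrocyte markers 9 were above 10 FPKM (sums 1326 and 1453), of 20 neuron markers 3 (161 and 160.4), and of 12 oligodendrocyte lineage markers 2 (57.2 and 61.9), although the oligodendrocyte factors Olig1 and Sox10 were at or near 0. None of the 8 endothelial or 7 microglial markers measured was above 10 FPKM, and 7 and 6 of them were below 1 FPKM in both libraries, Cdh5, Tie1, Ptprc and Tyrobp among them.

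Most genes differed little between the matrices. The median log2 ratio was 0.00058 and 74.4% of genes stayed within 1.1-fold, while 1060 genes (13.9%) were higher and 897 (11.7%) were lower on 12 kPa. Beyond 1.5-fold there were 6 higher genes (0.0786%) and 16 lower genes (0.21%), with 6 mitochondrially encoded messengers among the lower ones. Which side had more genes depended on the processing. With an FPKM above 2 in every library, 48 were higher and 34 lower of 10489 genes. After centring on GC content 11 were higher and 9 lower of 7552. The share past 1.1-fold fell with level, from 18.4% higher and 12.9% lower among the 1909 genes with the lowest FPKM to 9.59% and 10.3% among the 1909 with the highest. In the control NPCs the shares were 14.6% higher and 14.5% lower, of 7645 genes above the minimum there, with 26 genes (0.34%) higher and 29 (0.379%) lower beyond 1.5-fold.

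**Figure D1:**
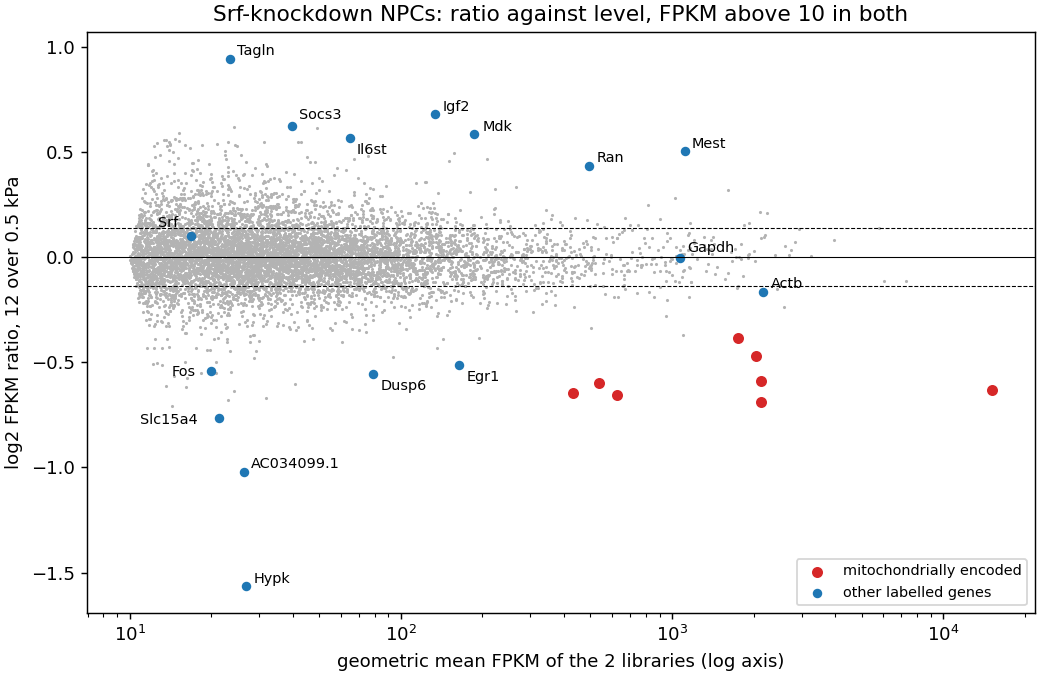
Each point is 1 of the 7635 well-expressed genes, the x axis is the geometric mean FPKM on a log axis and the y axis is the log2 FPKM ratio of 12 over 0.5 kPa. Dashed lines mark 1.1-fold, red points are the 8 mitochondrially encoded messengers and blue points are other labelled genes. Tagln (0.94) is the highest and Hypk (-1.56) the lowest point, and the red points sit together between -0.69 and -0.38.

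The highest ratio belonged to Tagln, which encodes the actin-binding protein transgelin of smooth muscle. Tagln was at 16.9 FPKM on 0.5 kPa and 32.6 on 12 kPa (log2 0.94 ± 0.052). Both values were far below those of the control libraries, 298 and 242 FPKM, where the ratio was -0.30. Of the 6 contractile genes above the minimum, 3 were higher (50%, against 13.9% of all genes), none was lower and the median log2 ratio was 0.21, against 0.00058 over all genes. That median depended on the minimum, at 0.31 for members above 5 FPKM and 0.098 for those above 20 FPKM. Myl9, a myosin light chain, went from 25.1 to 33.7 FPKM (log2 0.42 ± 0.055), and the cytoskeletal protein gene Smtn from 27.4 to 34.0 (log2 0.31 ± 0.029). Tpm1, Tpm2 and Csrp1 stayed within 1.1-fold. Acta2, smooth muscle actin, was below the minimum at 6.74 and 8.96 FPKM (log2 0.41 ± 0.082), and so was the calponin gene Cnn1 at 0.795 and 1.32. In the control libraries Acta2 was at 321 and 322 FPKM. The cytoskeletal targets of Mkl1 and Srf outside smooth muscle were split, with 5 higher and 5 lower of 26. That is 19.2% each way, against 13.9% and 11.7% of all genes. Tagln2 (log2 0.21), the nonmuscle myosin gene Myh9 (0.23) and the talin gene Tln1 (0.21) were higher. The cytoplasmic actins were lower, Actb from 2299.9 to 2049.9 FPKM (log2 -0.17 ± 0.0046) and Actg1 from 2567 to 2315 (-0.15 ± 0.0043), and the tropomyosin gene Tpm3 was at -0.34.

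CArG boxes were looked for in the windows from 250 bases before to 50 after RefSeq gene starts (GRCm38.p6). The box was present in 1.63% of all 32851 windows, and 98 of the 6086 well-expressed genes with a window held it in at least 1. Of these 98 genes 14 were higher and 19 lower on 12 kPa, which are 14.3% and 19.4%, against 13.8% and 11.8% of all 6086. A match is a description of the letters and not a bound site. The stretches below are shown because they belong to genes of the contractile, growth factor and immediate early groups described here, and because Srf has boxes before its own start. They lie before the gene start on the strand of the gene, and capitals mark the CArG box. The stretches of Srf and Igf2 lie inside the annotated locus, since each gene has another start further upstream, and those of Myl9, Actg1, Zfp36 and Dusp5 lie outside it.
Srf, chr17:46556175-46556274, minus strand: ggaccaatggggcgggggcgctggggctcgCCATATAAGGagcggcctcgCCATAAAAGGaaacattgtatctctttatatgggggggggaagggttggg
Myl9, chr2:156775273-156775362, plus strand: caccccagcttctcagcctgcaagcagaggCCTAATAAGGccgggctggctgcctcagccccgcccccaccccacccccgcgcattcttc
Actg1, chr11:120348526-120348615, minus strand: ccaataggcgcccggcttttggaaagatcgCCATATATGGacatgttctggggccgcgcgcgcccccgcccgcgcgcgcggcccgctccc
Igf2, chr7:142661367-142661456, minus strand: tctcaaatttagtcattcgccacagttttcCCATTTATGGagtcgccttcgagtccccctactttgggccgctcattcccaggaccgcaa
Zfp36, chr7:28379229-28379316, minus strand: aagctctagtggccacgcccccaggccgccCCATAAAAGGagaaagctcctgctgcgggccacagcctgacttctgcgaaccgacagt
Dusp5, chr19:53529033-53529122, plus strand: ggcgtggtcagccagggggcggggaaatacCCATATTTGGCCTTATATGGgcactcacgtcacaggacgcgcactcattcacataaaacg
Of these genes Igf2 and Myl9 were higher on 12 kPa, whereas Actg1, Zfp36 and Dusp5 were lower, so genes with a box lay on both sides. The Tagln promoter was not analysed here.

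The immediate early genes, which switch on within minutes of a growth signal, tended to be lower on 12 kPa. Of 21 above the minimum 9 were lower (42.9%, against 11.7% of all genes) and 3 higher (14.3%, against 13.9%), with a median log2 ratio of -0.11. Egr1, a zinc finger factor, was at 196 FPKM on 0.5 kPa and 137 on 12 kPa (log2 -0.51 ± 0.013). Fos, a subunit of the AP-1 factor, went from 24.1 to 16.6 FPKM (-0.54 ± 0.045). Dusp2, a phosphatase that inactivates MAP kinases, went from 16.9 to 11.1 (-0.61 ± 0.064), and was the member past 1.5-fold. Klf10 (-0.52), Fosl1 (-0.31), Dusp5 (-0.28), Ier2 (-0.21) and the mRNA decay factor Zfp36 (-0.16) were lower as well, while Klf4 (0.21), Klf2 (0.20) and Jund (0.20) were higher. The same 21 genes had a median of -0.33 in control NPCs. Egr1 was at 87.0 and 36.2 FPKM there (-1.27) and Fos at 7.85 and 4.67 (-0.75).

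Genes known to restrain or respond to ERK signalling included several lower members, and receptor genes several higher ones. The list of growth factor receptors and ERK feedback genes gave 9 higher (39.1%) and 7 lower (30.4%) of 23, against 13.9% and 11.7% of all genes, and a median near 0 (-0.0013), and it was divided by role after the values had been seen. Of 8 feedback inhibitors 5 were lower (62.5%, against 11.7% of all genes) and none was higher, with a median of -0.18. After centring on GC content 4 of them were lower, against 10.1% of all genes. Dusp6, which dephosphorylates ERK, went from 95.9 to 65.2 FPKM (log2 -0.56 ± 0.020), and Spry4, an inhibitor of receptor signalling, from 22.1 to 15.1 (-0.55 ± 0.031). Spry1 (-0.24), Spry2 (-0.18) and Spred1 (-0.17) followed, and so did the factors Etv5 (-0.23) and Etv4 (-0.18). Cyclin D1, which drives entry into the cell cycle, was lower too, with Ccnd1 at 110.2 and 79.3 FPKM (-0.47 ± 0.015). All 5 receptor tyrosine kinase genes above the minimum were higher, between 0.14 for Egfr and 0.22 for Erbb2, with Fgfr1 at 133 and 147 FPKM. This compares with 13.9% of all genes. After centring on GC content 3 of the 5 were higher, against 11.6% of all genes. In control NPCs Dusp6 had a ratio of -0.41, Spry4 of -0.42 and Ccnd1 of -0.36.

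Of 10 members of the insulin-like growth factor axis, a group assembled after the values had been seen, 5 were above the minimum and all 5 were higher on 12 kPa, against 13.9% of all genes. After centring on GC content 3 of the 5 were higher, and of the 3 binding protein genes 1 was, against 11.6% of all genes. Igf2, the fetal growth factor of this axis, was at 106 FPKM on 0.5 kPa and 169 on 12 kPa (log2 0.68 ± 0.012), and at 94.9 and 75.3 in control NPCs (-0.33). The binding protein genes Igfbp3 (57.1 and 78.9 FPKM, log2 0.47), Igfbp6 (0.22) and Igfbp4 (0.15) and the receptor adaptor Grb10 (18.9 and 26.9 FPKM, 0.50 ± 0.028) were higher. Their receptor gene Igf1r passed the minimum in the knockdown on 12 kPa alone, at 6.50 and 11.7 FPKM. Igf2 and Grb10 are imprinted, as is Mest, a gene of mesodermal tissue, which was at 934 and 1323 FPKM (0.50 ± 0.0056). Among the 11 imprinted genes above the minimum these 3 were higher (27.3%, against 13.9% of all genes) and 2 lower (18.2%, against 11.7%). The lower ones were the ubiquitin ligase gene Ube3a (-0.39) and Ndn (-0.19), and the median of the 11 was -0.062. Dlk1 and Peg10 stayed within 1.1-fold.

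**Figure D2:**
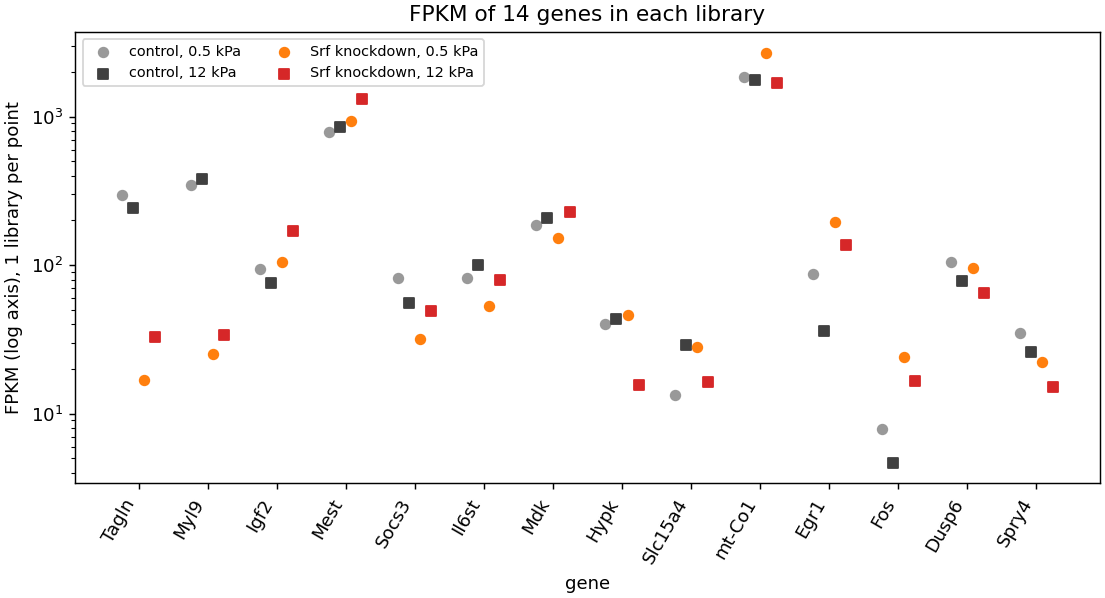
FPKM on a log axis of 14 genes in the control libraries (grey) and the Srf-knockdown libraries (orange on 0.5 kPa, red on 12 kPa), each point being 1 library. Tagln is at 16.9 and 32.6 FPKM in the knockdown and at 298 and 242 in the control libraries, and Hypk falls to 15.7 FPKM in the knockdown library from 12 kPa alone.

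Among the other largest rises were Socs3, a feedback inhibitor of cytokine receptors, which went from 32.0 to 49.2 FPKM (log2 0.62 ± 0.030), and Il6st, the receptor chain gp130, which went from 53.3 to 78.9 (0.57 ± 0.016). Socs3 went the other way in control NPCs, from 81.9 to 56.0 FPKM. The growth factor midkine, Mdk, was at 152 and 227 FPKM (0.58 ± 0.023), the chemokine Cxcl12 at 108 and 139 (0.36) and the lipid carrier Apoe at 133 and 187 (0.49). The amino acid transporter Slc38a4 was at 19.5 and 29.9 FPKM (0.62 ± 0.031). The nuclear transport GTPase Ran, at 426 and 576 FPKM (0.44), Akt1s1 (0.46), a partner of the mTOR kinase, and Chmp1a (0.46), of the membrane-cutting ESCRT machinery, completed the 8 highest ratios among genes above 100 FPKM. Mycbp (0.61), Zfp276 (0.56), Tbc1d24 (0.56) and the ISG15-activating enzyme gene Uba7 (0.55) were among the 12 highest ratios, with 1700030K09Rik (0.59) and Mmp23 (0.56), whose loci overlap Cherp (-0.34) and Mib2 (0.19). The loci of Tagln, Igf2, Slc38a4, Mycbp, Mdk, Mest, Zfp276, Tbc1d24, Slc15a4, Csn3 and Orc1 also overlap other annotated genes. The same holds for Akt1s1 and Chmp1a, and for Srf, Mkl1, Elk3, Elk4 and Actb of the Srf pathway. Reads from overlapping loci may have been assigned to either gene, so these values are uncertain. In control NPCs Zfp276 (0.86), Cxcl12 (0.43), Mmp23 (0.39), Il6st (0.29), Apoe (0.21), Mycbp (0.20), Mdk (0.15) and Slc38a4 (0.14) were higher too. Uba7 (-0.14) and 1700030K09Rik (-0.32) were lower there, and Ran, Akt1s1, Chmp1a and Tbc1d24 stayed within 1.1-fold.

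Genes of the extracellular matrix were more often higher than lower by count, but their summed levels did not all follow. Over all 44 glycoprotein genes measured the sum was 6369 FPKM on 0.5 kPa and 6061 on 12 kPa. For 21 proteoglycan genes it was 1423 and 1333, and for 44 collagen genes 3293 and 3424. Of 30 matrix glycoprotein genes 11 were higher (36.7%, against 13.9% of all genes) and 2 lower (6.67%, against 11.7%), with a median log2 ratio of 0.10. The fibulin gene Fbln2 was at 11.7 and 17.0 FPKM (log2 0.54 ± 0.036) and the thrombospondin gene Thbs1 at 21.8 and 30.6 (0.49 ± 0.024). Spp1, encoding osteopontin, was lower at 2806 and 2384 FPKM (-0.23 ± 0.0048), and so was the laminin gene Lamc1 (-0.23), while Fn1, fibronectin, was level at 570.1 and 575. Of 11 proteoglycan genes 5 were higher (45.5%), among them the glypican genes Gpc4 (0.53) and Gpc2 (0.48) and the versican gene Vcan (0.38), and Bgn was lower (-0.20). Of 17 collagen genes 7 were higher (41.2%) and 1 lower, with a median of 0.092. Col8a2 (0.53) and Col12a1 (0.41) had the highest ratios, Col1a2 went from 338 to 388 FPKM (0.20 ± 0.0066) and Col3a1 was level (0.0082). The median of the same collagen genes was -0.13 in control NPCs. Of 20 focal adhesion genes, which link integrins to actin, 4 were higher (20%) and none lower, led by the paxillin gene Pxn at 48.9 and 60.8 FPKM (0.31 ± 0.021). Medians in control NPCs were -0.049 for the glycoprotein, -0.097 for the proteoglycan and -0.085 for the focal adhesion genes. In the knockdown they were 0.10, 0.13 and 0.086. After centring on GC content the knockdown medians were 0.053, 0.081 and 0.036, and the control medians were not centred. By the centred ratios 4 focal adhesion genes were higher and 1 lower, against 11.6% and 10.1% of all genes.

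Genes of the Wnt pathway showed 8 higher (47.1%, against 13.9% of all genes) and 1 lower (5.88%, against 11.7%) of 17, with a median log2 ratio of 0.12. By roles assigned after the values had been seen, all 3 Frizzled receptor genes above the minimum were higher, Fzd1 from 10.6 to 14.7 FPKM (log2 0.48 ± 0.040), Fzd2 from 45.0 to 57.9 (0.36 ± 0.022) and Fzd7 (0.19). The nuclear effectors Tcf7l1 (0.22) and Tcf7l2 (0.27) were higher, and the secreted inhibitor Dkk2 was the lower member (-0.20). Of the 2 secreted inhibitor genes above the minimum the other was higher (0.16). The effector beta-catenin, Ctnnb1, was level at 317 and 325 FPKM. The ligand gene Wnt5a crossed the minimum, at 6.35 FPKM on 0.5 kPa and 13.8 on 12 kPa (1.12 ± 0.038). In control NPCs Wnt5a was at 25.6 and 23.7 FPKM. The same 17 Wnt pathway genes had a median of 0.0082 there, and the 2 Tcf genes one of 0.25.

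The messengers encoded by the mitochondrial genome had the lowest median of the lists and families examined. All 8 above the minimum were lower on 12 kPa, with a median log2 ratio of -0.62, against 0.0013 in control NPCs. The cytochrome oxidase subunit gene mt-Co1 was at 2690.1 FPKM on 0.5 kPa and 1670.3 on 12 kPa (-0.69 ± 0.0053), and mt-Cytb of complex III at 2609 and 1736 (-0.59 ± 0.0063). The complex I genes mt-Nd6 (-0.66), mt-Nd5 (-0.65), mt-Nd4 (-0.60), mt-Nd2 (-0.47) and mt-Nd1 (-0.38) and the ATP synthase gene mt-Atp8 (-0.63) made up the rest. For mt-Co1 the library that stood apart was the one from 0.5 kPa, since the control libraries were at 1838 and 1761 FPKM, whereas for mt-Nd5 it was the one from 12 kPa, with 603 and 609 FPKM in control and 541 and 345 in the knockdown. The other 5 of 13 messengers (mt-Co2, mt-Co3, mt-Atp6, mt-Nd3 and mt-Nd4l) were below the minimum in at least 1 library. Of these mt-Co2 was higher on 12 kPa (1.03) and mt-Nd4l lower (-0.88), both on few reads. Why these messengers were so low was not tested. Nuclear genes for the same complexes had medians of 0.0033 for 37 complex I, -0.038 for 9 complex III, 0.070 for 13 complex IV and -0.011 for 17 ATP synthase genes.

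**Figure D3:**
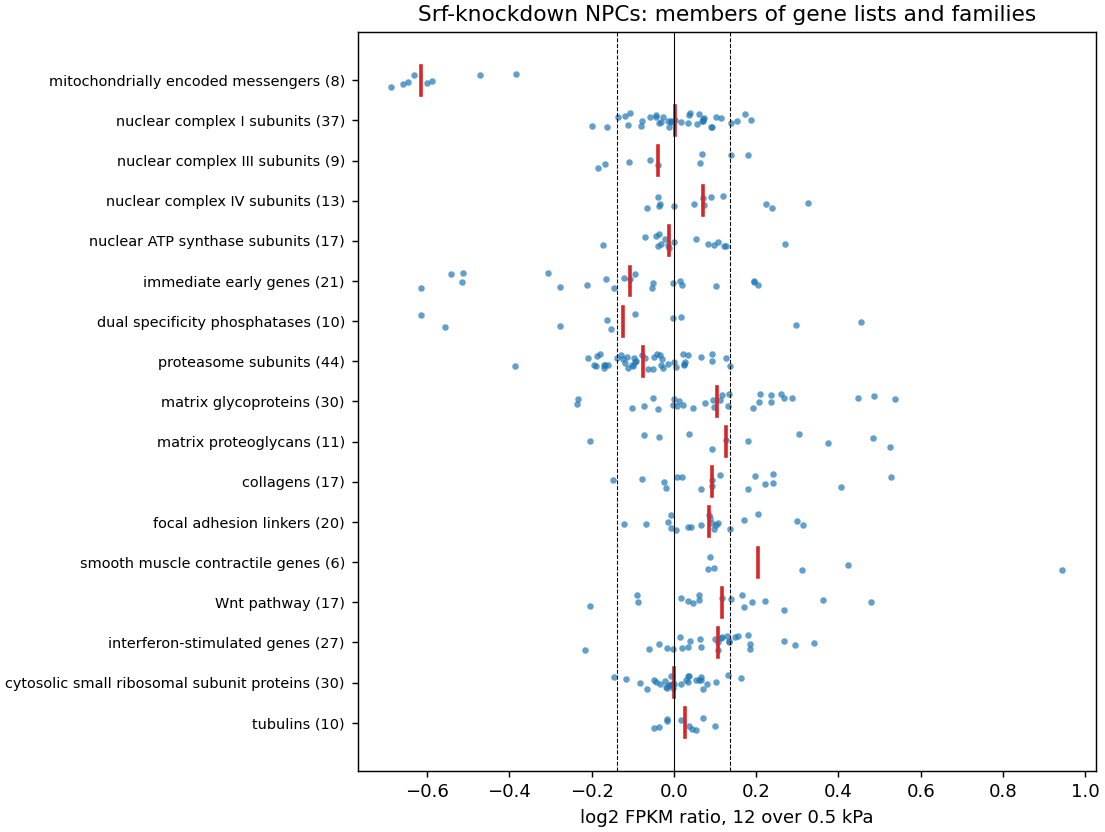
Each blue point is a gene with an FPKM above 10 in both Srf-knockdown libraries, placed by its log2 FPKM ratio of 12 over 0.5 kPa, with the red bar at the median of its list, the number of genes in brackets and dashed lines at 1.1-fold. The 8 mitochondrially encoded messengers lie apart on the left (median -0.62), and the tubulin genes lie within 1.1-fold.

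Proteasome genes were lower or level. The family was matched by symbol and takes in assembly factors and Psmc3ip, which is not a subunit. Of its 44 genes 10 were lower (22.7%, against 11.7% of all genes) and none higher. The median log2 ratio was -0.075, and -0.035 in control NPCs. The regulatory ATPase gene Psmc1 was at 222 and 170.1 FPKM (log2 -0.39 ± 0.018), the regulatory subunit gene Psmd11 at -0.21 and the core subunit gene Psma5 at -0.19. Several families of abundant genes were level. None of 10 tubulin genes and none of 10 SR splicing factor genes passed 1.1-fold, and of 30 small ribosomal subunit protein genes 1 was higher and 1 lower. Interferon-stimulated genes were 8 higher (29.6%, against 13.9% of all genes) and 1 lower (3.7%, against 11.7%) of 27. Their median was 0.11, and 0.094 in control NPCs. Stat2, a factor of interferon signalling, was at 16.4 and 20.8 FPKM (0.34 ± 0.032). Of 7 clock genes above the minimum, whose median of -0.020 turned positive with lower minima, 2 were lower (28.6%, against 11.7% of all genes), Arntl from 19.1 to 13.5 FPKM (-0.50 ± 0.042) and Bhlhe40 (-0.16). The same 7 genes had a median of -0.16 in control NPCs.

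The lowest ratio of a single gene was that of Hypk, which encodes a partner of the enzyme that acetylates protein N termini. Hypk was at 40.0, 43.3 and 46.4 FPKM in both control libraries and the knockdown library from 0.5 kPa, and at 15.7 on 12 kPa (log2 -1.56 ± 0.028). A single library was therefore low. The transcript length taken for Hypk, 4170 nucleotides, exceeds its annotated locus (chr2:121457088-121458440). The estimated reads, counting SE and GC content of Hypk are therefore uncertain. Slc15a4, a lysosomal transporter of histidine and peptides, was at 27.9 and 16.4 FPKM (-0.77 ± 0.038) and at 13.4 and 29.0 in control NPCs, the opposite order. Tceanc2 (29.2 and 18.2 FPKM, -0.68), Fam45a (-0.67), the polyamine transporter Slc18b1 (-0.71), the casein gene Csn3 (-0.64), the replication origin protein gene Orc1 (-0.62) and AC034099.1 (-1.02) were the other large falls.

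Transcript base composition moved with the ratio. For the 7552 genes with a transcript sequence (98.9%), the median log2 ratio rose over 10 equal bins of GC content from -0.065 in the bin around 40.6% GC to 0.081 in the bin around 59.9% GC, and Spearman's rho across genes was 0.37. In control NPCs the same bins went from 0.023 to -0.037, and rho was -0.14. Genes are not independent replicates, and the part of base composition in each result was not tested. After centring the ratios within 50 bins of GC content, the median was -0.54 for the mitochondrially encoded messengers, -0.14 for the immediate early genes, 0.17 for the contractile genes and -0.066 for the proteasome genes. It was 0.053 for the matrix glycoproteins, where 10 genes were higher and 2 lower, 0.050 for the collagens and 0.069 for the Wnt pathway, with 7 higher and 2 lower. Of the immediate early genes 1 was higher and 11 lower after centring, and of the proteasome genes 7 were lower. Over all 7552 genes 11.6% were higher and 10.1% lower after centring. The calls of Fgfr1, Igfbp4, Igfbp6, Jund, Klf2, Mib2, Mkl1 and Spred1 ended under this centring.

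**Figure D4:**
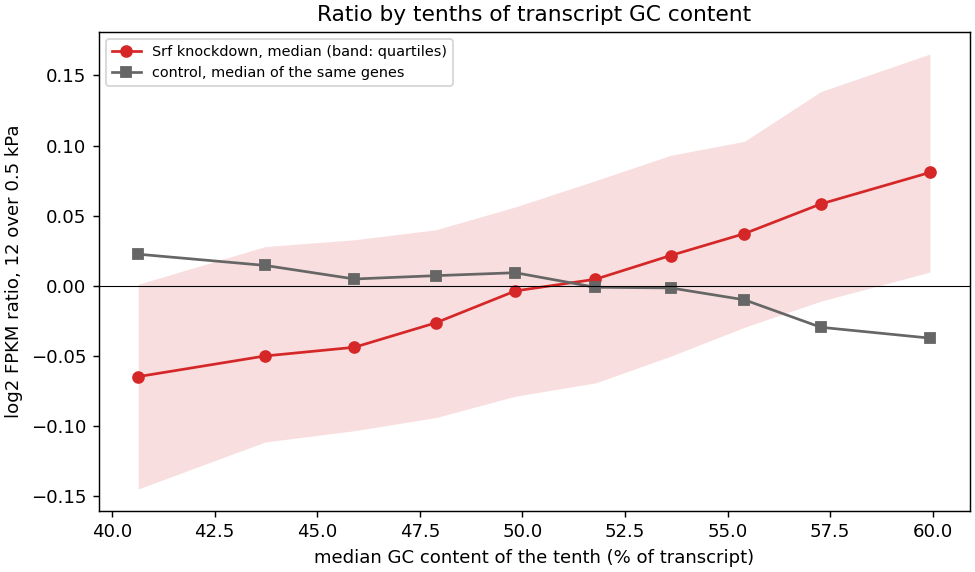
Median log2 FPKM ratio of 12 over 0.5 kPa in 10 equal bins of genes by transcript GC content, in Srf-knockdown NPCs (red, band from the lower to the upper quartile) and for the same genes in control NPCs (grey). The red line climbs from -0.065 to 0.081 while the grey line goes from 0.023 to -0.037.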

How the data were processed

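RNA was sequenced single-end from 4 libraries, 1 per condition, made with a stranded poly(A) kit. The authors trimmed reads with cutadapt 1.9.1, mapped them to mm10 with TopHat2 2.1.0 and Bowtie2 2.2.8, kept reads of high mapping quality and deposited FPKM values from Cufflinks 2.2.1, per the labels and the methods of the study. FPKM is scaled to each library's total, so a change in abundant transcripts moves the values of others. Whether counting used strand is not given in the sources used here.

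Each library listed 21997 rows. The 63 symbols listed more than once (135 rows) were left out. The log2 ratio of 12 over 0.5 kPa was computed from the values as deposited, without a pseudocount, for genes with an FPKM above 10 in both libraries of Srf-knockdown NPCs, in Python 3.11 with numpy, pandas and scipy. With 1 library per condition no test was possible. Genes named are the 12 largest ratios each way, the 8 largest each way above 100 FPKM, genes of the Srf pathway studied, and members of lists past 1.5-fold or examples of them. Other members named in the text were chosen after their values were seen. The members and lists were chosen with earlier results of these data known.

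Depth came from the low end of the table, 1047 genes under 0.1 FPKM, of which 59.1% lay within 0.05 reads of whole numbers in every library. Those 324 that have just 1 annotated transcript, longer than 1000 nucleotides (less 200 for the read overhang), set what a single read is worth and so the reads per library. Transcript lengths and GC content came from an older GENCODE release than the one used by the authors and are approximate. The counting SE assumes Poisson error of those reads. Where a gene had no transcript length, the median SE of all genes was used to judge whether an alternative moved it. The calculation was tested on simulated data.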

Additional observations from a re-analysis of the deposited data

Results flagged for a closer look

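Genes named here whose FPKM ratio 12/0.5 kPa passed 1.1-fold in opposite directions in Srf-knockdown and control NPCs are listed with the difference of the log2 ratios, Srf-knockdown minus control. These differences were not tested, there being 1 library per condition. Higher on 12 kPa in the knockdown and lower in control were mt-Co2 (1.44), Tagln (1.24), Socs3 (1.17), Cnn1 (1.05), Igf2 (1.01), Fbln2 (0.93), 1700030K09Rik (0.91), Mib2 (0.81), Uba7 (0.69), Tagln2 (0.68), Igfbp3 (0.62), Jund (0.52), Pxn (0.49), Igfbp4 (0.46), Igfbp6 (0.45), Mkl1 (0.41). Lower in the knockdown and higher in control were Slc15a4 (-1.88), mt-Nd4l (-1.47), Tceanc2 (-1.005), Fam45a (-0.87), Cherp (-0.86). mt-Co2, mt-Nd4l and Cnn1 rest on few reads, with mt-Nd4l at an estimated 58 and 44 reads in the knockdown libraries, mt-Co2 below 1 FPKM in every library and Cnn1 at 0.795 FPKM in the knockdown library from 0.5 kPa.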

How the results depend on the processing

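No paired analysis was possible because there is just 1 library per condition. The share of genes higher on 12 kPa (13.9%) and the share lower (11.7%) stayed within 1.5 times their value under another FPKM minimum, a pseudocount of 1, scaling to the 75th percentile, centring on the median, within bins of GC content or of transcript length, and rescaling without the mitochondrially encoded genes. At 1.2-fold the shares were 3.61% and 2.16%. The share past 1.5-fold in either direction was 0.782% with a minimum FPKM of 2 in every library, 0.515% above 5 in both, 0.595% with no minimum and a pseudocount of 1, and 0.0262% past 2-fold. The larger number of lower genes past 1.5-fold (16, against 6 higher) did not hold throughout. Higher and lower genes numbered 48 and 34 with the minimum of 2, 84 and 46 with no minimum, and 11 and 9 after GC centring. The cause was not tested. Of 402 values of 42 named genes under these alternatives none changed sign from a called value and 23 moved by more than about 2 counting SE. Of all 98 genes named in the text that passed 1.1-fold, 8 no longer did so after GC centring (Fgfr1, Igfbp4, Igfbp6, Jund, Klf2, Mib2, Mkl1 and Spred1) and 2 after length centring (Actg1 and Egfr), a check added after seeing the data. Of 1048 medians of 105 lists, families and roles 161 moved by more than the median counting SE of their members and none past 1.1-fold changed sign. The contractile genes (0.21) were at 0.31 above 5 FPKM, 0.098 above 20 FPKM and also 0.098 when no minimum was set (pseudocount 1), the Frizzled genes (0.36) at 0.18 with no minimum, and after GC centring the feedback inhibitors were at -0.14, the binding proteins at 0.12 and the proteasome ATPases at -0.12. The depth limits values of genes with low FPKM, where the counting SE is largest.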
